A study of Homo sapiens with 4 samples.

Results

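Every deposited entry of the miR-320 family and of miR-484 was followed through small RNA libraries of PC-3, an established human prostate cancer cell line. Entries were chosen by name, as miR-320a to miR-320e or miR-484, with either arm and any copy names allowed. Of the 6 names sought, 5 had an entry: miR-320a-3p, miR-320b, miR-320c, miR-320d and miR-484. No entry matched miR-320e, which was not analysed here. These are 5 of 1096 entries in all, and 5 of the 516 that carry a catalogue name. There were 2 libraries of cells given apelin, a peptide hormone that signals through the APJ receptor, at 10 µg/mL for 24 h, and 2 of cells without treatment. All were of the same cell line in medium with fetal bovine serum, and no label says that replicates are separate cultures. The p-values therefore reflect the spread among these 4 libraries alone, and that spread may be technical.

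Most miRNAs are cut from a long primary transcript by the nuclear enzyme Drosha, and the hairpin so released is cut again by Dicer. miR-320a and miR-484 are known exceptions in mammals. Their hairpins form without Drosha, that of miR-320a at the very start of a short capped transcript that leaves the nucleus by exportin-1, and Dicer then cuts them. miR-320a is known to repress beta-catenin, a Wnt pathway component, also in prostate cancer cells, and miR-484 to repress FIS1, a mitochondrial fission protein. The libraries counted mature miRNAs, so they hold no measure of the Drosha step itself.

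The mature sequences show how close the isotypes are. RefSeq (GRCh38.p14) held a mature sequence by name for 4 of the 5 entries, and that of miR-320e is added for comparison. Capitals mark the seed, bases 2 to 8, which pairs with target mRNAs.
miR-320b: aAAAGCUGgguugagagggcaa
miR-320c: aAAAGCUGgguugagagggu
miR-320d: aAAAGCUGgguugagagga
miR-320e: aAAGCUGGguugagaagg
miR-484: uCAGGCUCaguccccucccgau
miR-320b, miR-320c and miR-320d share a seed, while that of miR-320e is shifted by a base and that of miR-484 is unrelated. miR-320b and miR-320c have their first 19 bases in common, and miR-320d has its first 18 in common with each of them. The 3 isotypes therefore part only at their 3′ ends. In the deposited table miR-320c and miR-320d are both listed at 18 nt, miR-320b at 20 nt, and miR-320a-3p and miR-484 at 22 nt. The RefSeq forms of miR-320b and miR-320c are each 2 nt longer than listed, at 22 and 20 nt, and that of miR-320d is 1 nt longer, at 19 nt. Over the first 18 bases, the letters of miR-320b, miR-320c and miR-320d are the same. The sources used here do not say what the length column stands for, nor how reads that match several isotypes were counted. The values of single isotypes, that of miR-320a-3p included, are uncertain for that reason. No mature sequence of miR-320a-3p was at hand, so the bases it shares with the others were not counted here. Some copy-named rows elsewhere, such as miR-92a-2-3p and miR-92a-3p, have equal values in every library. Reads may thus be counted in more than a single row, and library totals and TPM may hold them repeatedly. Of 452 catalogue entries matched to RefSeq by name, 213 had the RefSeq length and 21 were listed shorter by 2 nt or more.

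Hairpins of miR-484, miR-320b and miR-320d show the contrast in the place of the mature strand, which stands in capitals.
MIR484: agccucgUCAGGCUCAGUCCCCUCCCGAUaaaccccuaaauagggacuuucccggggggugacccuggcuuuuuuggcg
MIR320B1: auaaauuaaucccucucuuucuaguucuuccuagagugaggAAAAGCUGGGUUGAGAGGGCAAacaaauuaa
MIR320D1: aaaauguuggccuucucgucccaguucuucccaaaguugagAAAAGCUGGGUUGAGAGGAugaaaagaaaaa

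The hairpins lie apart in the genome (GRCh38). MIR484 lies on the plus strand at chr16:15643294-15643372, in an exon of NDE1 in GENCODE release 29. It begins 27 bases after the start of an NDE1 transcript, and its mature strand takes up bases 8 to 29, on the 5′ arm. MIR320A lies on the minus strand at chr8:22244966-22245037, outside any other annotated gene. Its 5′ end is 67 bases from the start of POLR3D, an RNA polymerase III subunit gene on the opposite strand. miR-320b has a hairpin on the plus strand at chr1:116671746-116671817, outside any other annotated gene, and another on the minus strand at chr1:224257040-224257110, in an intron of NVL. miR-320c comes from plus-strand hairpins at chr18:21683518-21683589 and chr18:24321675-24321746, in introns of ABHD3 and OSBPL1A, both of which run on the opposite strand. miR-320d comes from minus-strand hairpins at chr13:40727816-40727887 and chrX:140926160-140926231, both outside other annotated genes. Each of miR-320b, miR-320c and miR-320d thus has 2 source hairpins, and its count does not tell them apart. The RefSeq hairpins of these 3 isotypes carry the mature strand on the 3′ arm.

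The libraries held 5322429 to 6014838 counts, in which a count of 0 allows up to 0.499 to 0.564 TPM (3 counts). Levels are TPM as the authors deposited them, which here are counts per 1000000 of the library with no division by length. Intervals and floors cover counting error only, because amplified reads that carry no molecular identifier may repeat a molecule. Nor do the floors bound an entry whose 0 stands beside high counts. miR-1226-3p, for one, had 479 and 0 counts with apelin, against 0 and 442 counts in the controls. miRNAs known to be abundant in PC-3 cells were abundant here (miR-21-5p, miR-100-5p, miR-221-3p and miR-222-3p together 279467 to 347079 TPM). Of the 3 epithelial markers sought, miR-205-5p and miR-200c-3p summed to 95.2 to 131 TPM, and miR-141-3p had no entry. Other members of the miR-200 family, outside that list, were higher. Their means over the libraries were 6635 TPM for miR-200b-3p, 989 TPM for miR-200a-3p and 396 TPM for miR-429. Of the 4 red cell markers only miR-486-5p had an entry, at 28.2 to 37.1 TPM. The entries for white cell, endothelial, muscle and liver markers summed to at most 13.7 TPM a list in any library.

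miR-320a-3p was by far the most abundant of these miRNAs, miR-484 came next, and the minor isotypes followed in the order of their letters. miR-320a-3p had 7409 and 4824 TPM in apelin libraries 1 and 2, against 9806 and 6418 TPM in control libraries 1 and 2. It was highest in control 1 and lowest in apelin 2, and the groups overlapped. Among catalogue entries it ranked 29th and 37th with apelin, and 24th and 31st in the controls. Copy-named rows of the same miRNA, such as those of miR-92a above it, held separate places in these ranks. miR-484 had 1071 and 808 TPM with apelin, against 1108 and 935 TPM in the controls, again highest in control 1 and lowest in apelin 2 with overlapping groups.

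Of the minor isotypes, miR-320b had 153 and 96.6 TPM with apelin, against 141.0 and 139.0 TPM in the controls. The apelin libraries lay on either side of the controls, which were nearly alike. miR-320c had 80.6 and 65.4 TPM with apelin, against 84.8 and 81.2 TPM in the controls. miR-320d had 44.3 and 40.3 TPM with apelin, against 46.6 and 51.7 TPM in the controls. For miR-320c and miR-320d both apelin libraries lay below both controls. Between the closest apelin and control libraries the gaps were narrow beside counting error. The exact Poisson 95% interval of miR-320c ran from 73.2 to 88.6 TPM in apelin 1, against 74.0 to 89.0 TPM in control 2. That of miR-320d ran from 38.9 to 50.4 TPM in apelin 1, against 41.3 to 52.3 TPM in control 1. In apelin 2 the miR-320c interval, 59.0 to 72.4 TPM, lay below those of both controls. The miR-320d interval in apelin 2, 35.3 to 45.9 TPM, lay just below that of control 2 (46.0 to 58.0 TPM) and overlapped that of control 1.

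The order miR-320a-3p, miR-484, miR-320b, miR-320c, miR-320d was the same in all 4 libraries, and it was also the same per nt of listed length. The ranges of neighbours in this order did not overlap over the 4 libraries. The minor isotypes lay close together. The count ratio of miR-320c to miR-320d was 1.82 and 1.62 with apelin, and 1.82 and 1.57 in the controls. The ratio of miR-320b to miR-320c was 1.90 and 1.48 with apelin, and 1.66 and 1.71 in the controls.

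**Figure D1:**
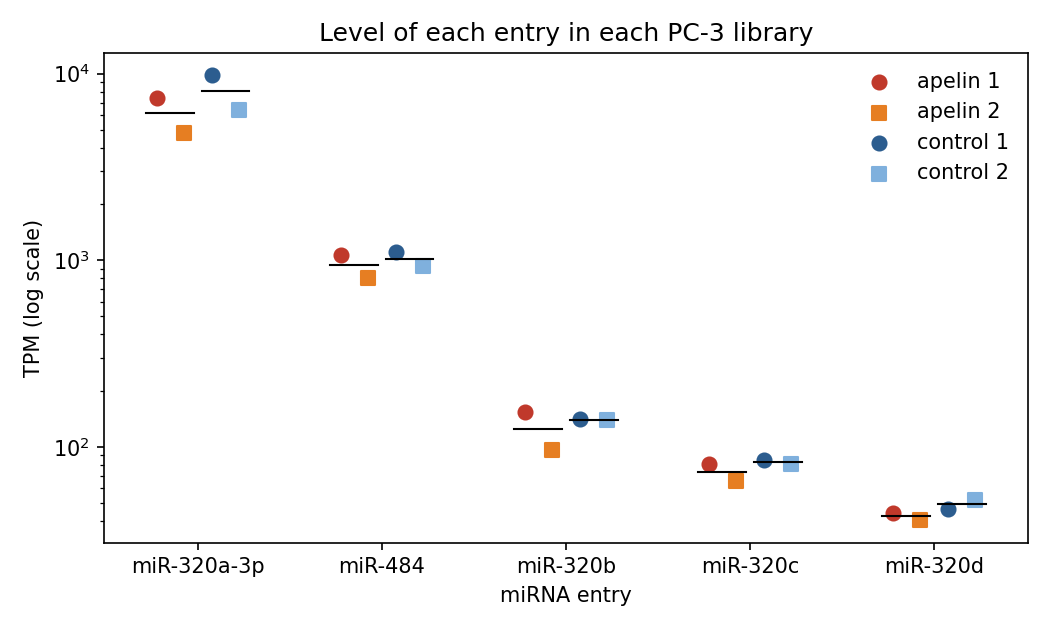
TPM on a log scale of each entry in the 4 libraries (points) with the mean of each group (bars, n = 2). miR-320a-3p lies between 4824 and 9806 TPM and miR-320d between 40.3 and 51.7 TPM, and the ranges of the 5 entries do not overlap.

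Between apelin-treated and untreated cells, no entry of the miR-320 family passed edgeR's test of 2 against 2 libraries, and neither did miR-484. All 5 fitted log2 fold changes (apelin minus control) were negative, and the 95% interval of each spanned 0. miR-320a-3p averaged 6117 ± 1828 TPM with apelin and 8112 ± 2395 TPM in controls (SD, n = 2 each). Its log2 fold change was -0.40 (SE 0.37, edgeR quasi-likelihood test, adjusted p = 0.688), with a 95% interval from -1.59 to 0.78. It was -0.055 without control 1, -0.22 without apelin 2, -0.71 without apelin 1 and -0.72 without control 2. miR-484 averaged 939 ± 186 TPM with apelin and 1021 ± 123 TPM in controls (SD, n = 2 each), and its log2 fold change was -0.11 (SE 0.21, adjusted p = 0.871 in edgeR) with an interval from -0.79 to 0.57. Without control 1 it turned to 0.027, and it was -0.014 without apelin 2, -0.29 without apelin 1 and -0.27 without control 2.

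The minor isotypes had smaller fitted differences than miR-320a-3p. miR-320d stood at -0.19 (SE 0.17, edgeR adjusted p = 0.688), with an interval from -0.76 to 0.37. miR-320c stood at -0.17 (SE 0.18, edgeR adjusted p = 0.739), with an interval from -0.75 to 0.41, and at -0.30 without apelin 1. miR-320b stood at -0.16 (SE 0.27, edgeR adjusted p = 0.869), with an interval from -1.03 to 0.72. It turned to 0.047 without apelin 2 and was -0.49 without apelin 1.

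Of the 5 entries, 0 were called by edgeR, which called 0 of the 263 tested entries (0%). An unadjusted p under 0.05 was found in 0 of the 5, against 5.70% of the 263. DESeq2 called 0 of the 5 (adjusted p from 0.390 to 0.806), against 20.2% of the 263. The median log2 fold change of the 5 was -0.17, against -0.018 over the 263 tested entries. Both apelin libraries lay below both controls for 2 of the 5 (miR-320c and miR-320d), against 17.5% of the tested entries. Negative fitted values, found in 5 of 5, were found in 50.6% of the tested entries. The lowest of the 4 libraries was apelin 2 for 5 of 5, against 42.0% of the 207 tested catalogue entries above 0 in every library. The isotypes share most of their bases and may share reads, so these are not 5 separate observations.

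**Figure D2:**
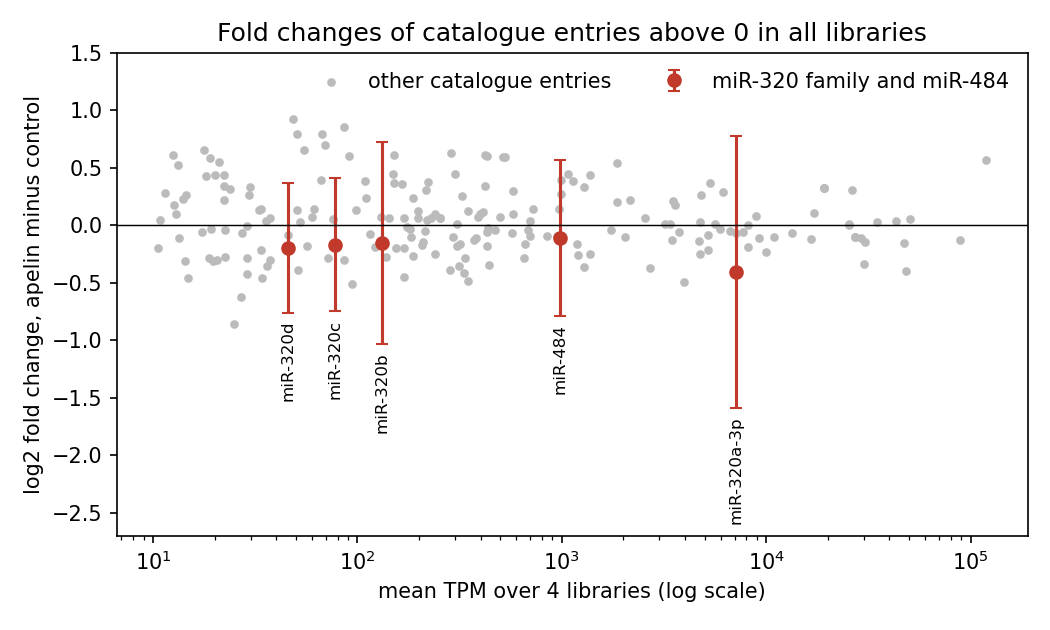
Fitted log2 fold change (apelin minus control, edgeR) against mean TPM (log scale) for the 207 tested catalogue entries above 0 in every library, with 95% intervals on the miR-320 family and miR-484. The 5 points lie below 0, from -0.40 to -0.11, and every interval spans 0.

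miR-320a-3p varied more within groups than most miRNAs. The controls differed 1.53-fold in its level, a wider gap than in 91.8% of the 207 catalogue entries above, whose median gap was 1.12-fold. The apelin libraries differed 1.54-fold, a wider gap than in 89.4% of them, with a median of 1.23-fold. Both gaps ran the same way, with library 1 above library 2 (9806 and 6418 TPM in the controls, 7409 and 4824 TPM with apelin). No label ties equal replicate numbers together, and whether these gaps have a shared source was not tested. From its lowest to its highest library miR-320a-3p spanned 2.03-fold, against a median of 1.37-fold. miR-484 spanned 1.37-fold, and gaps wider than its own were found in 68 of the 207 entries between controls and in 70 between apelin libraries. Of the minor isotypes, miR-320b differed 1.01-fold between controls and 1.58-fold between apelin libraries. miR-320c spanned 1.30-fold and miR-320d 1.28-fold over the 4 libraries.

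**Figure D3:**
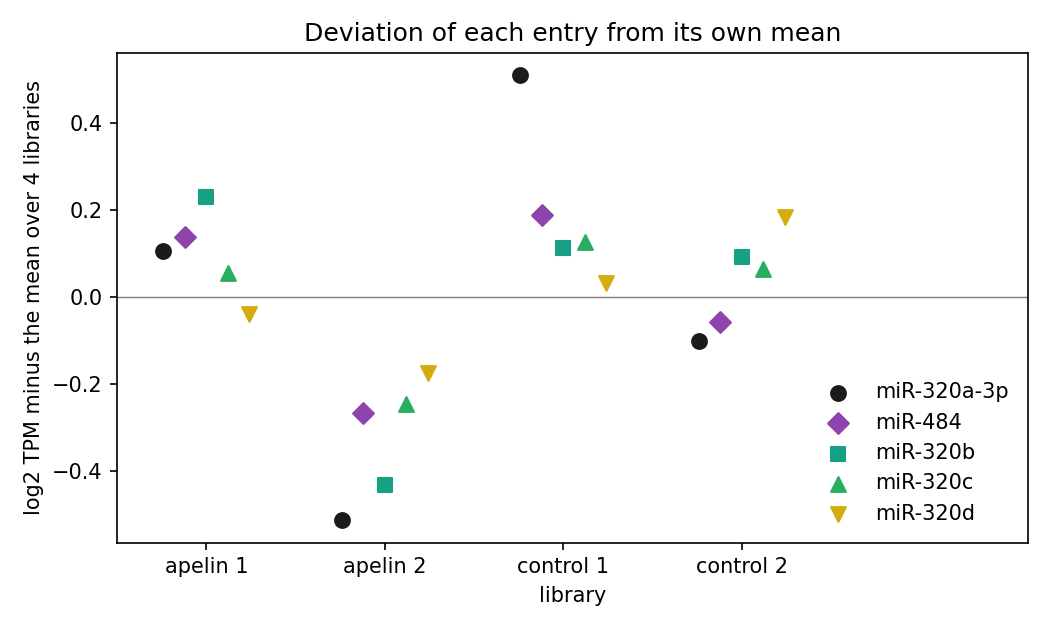
Log2 TPM of each entry in each library minus its own mean over the 4 libraries. miR-320a-3p (circles) reaches 0.51 in control 1 and -0.51 in apelin 2, and all 5 entries are at their lowest in apelin 2.

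Set against each other within a library, the isotypes did not keep a fixed proportion, and control 1 had the highest share of miR-320a-3p. miR-320a-3p made up 96.4% and 96.0% of the family's counts with apelin, against 97.3% and 95.9% in the controls. miR-320b, miR-320c and miR-320d together made up 3.61% (Wilson 95% interval 3.44 to 3.80) in apelin 1 and 4.03% (3.81 to 4.26) in apelin 2, against 2.70% (2.58 to 2.83) in control 1 and 4.06% (3.87 to 4.27) in control 2. The share was lowest in control 1 and next lowest in apelin 1. The interval of control 1 lay below that of apelin 1, and both lay below those of apelin 2 and control 2. These intervals hold counting error alone, not the spread between libraries or the way reads that match several isotypes were counted. miR-320a-3p had 48.4 and 49.9 counts for each count of miR-320b with apelin, against 69.6 and 46.2 in the controls.

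These proportions differed between the controls by more than between the groups. The share of miR-320a-3p averaged 96.18% ± 0.29 with apelin and 96.62% ± 0.96 in controls (SD, n = 2 each; exact permutation test, two-sided, p = 1, where 2 against 2 libraries allow no p under 0.33). The difference of -0.44 percentage points turned to 0.24 without control 1, and was -1.12 without control 2 and -0.23 without apelin 2. miR-320b held 1.99% and 1.92% of the family with apelin, against 1.40% and 2.08% in the controls. miR-320c held 1.05% and 1.30% with apelin, against 0.841% and 1.21% in the controls, and miR-320d 0.577% and 0.803% against 0.462% and 0.773%. For all 3 the control values lay on either side of the apelin ones or overlapped them, and the differences in mean share, 0.22, 0.15 and 0.072 percentage points, gave exact permutation p-values of 1, 0.667 and 0.667 (two-sided). Without control 1 all 3 differences turned negative, at -0.12, -0.039 and -0.084 percentage points, and without control 2 they were 0.56, 0.33 and 0.23. Without apelin 2 miR-320d turned to -0.041 and miR-320c was 0.021. Without apelin 1 miR-320d was 0.18 and miR-320c 0.27.

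**Figure D4:**
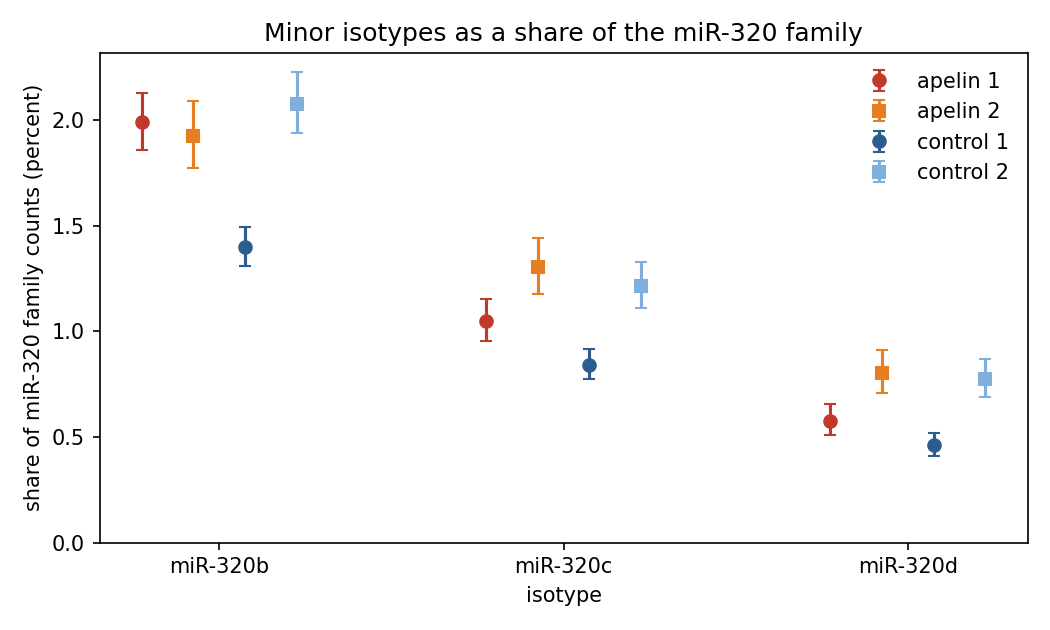
Counts of miR-320b, miR-320c and miR-320d as a percentage of the miR-320 family's counts in each library, with Wilson 95% intervals. Control 1 has the lowest share of each, at 1.40%, 0.841% and 0.462%.

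The family as a whole summed to 7687 and 5026 TPM with apelin, against 10078 and 6690 TPM in the controls. The means were 6357 ± 1882 TPM with apelin and 8384 ± 2395 TPM in controls (SD, n = 2 each), and the groups overlapped (exact permutation test, two-sided, p = 0.667). The difference of -2027 TPM was -334 TPM without control 1, -697 TPM without apelin 2, -3358 TPM without apelin 1 and -3721 TPM without control 2. With miR-484 added, these miRNAs held 0.876% and 0.583% of all counts with apelin, against 1.12% and 0.762% in the controls. miR-320a-3p and miR-484, the established Drosha-independent miRNAs of this set, did not move in a fixed ratio. There were 6.92 and 5.97 counts of miR-320a-3p for each of miR-484 with apelin, against 8.85 and 6.87 in the controls. The log2 ratio of miR-484 to the family sum was 0.27 higher with apelin (-2.74 ± 0.15 with apelin and -3.01 ± 0.24 in controls, SD, n = 2 each; exact permutation test, two-sided, p = 0.667), and the groups overlapped narrowly, at -2.844 in apelin 1 and -2.840 in control 2. The difference was 0.099 without control 1, 0.17 without apelin 2 and 0.44 without control 2.

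By the distance used here, the miRNAs nearest to miR-320a-3p were not its own isotypes. Likeness was the Euclidean distance between log2 TPM values centred on each entry's mean over the 4 libraries, among the 207 catalogue entries. With 4 libraries it is only a description. Values were not scaled, so the distance reflects the size of the swing as well as its shape. miR-320a-3p spanned 2.03-fold, against 1.30-fold for miR-320c and 1.28-fold for miR-320d. Nearest to miR-320a-3p were miR-2110 (distance 0.0996), miR-1301-3p (0.164) and miR-193a-5p (0.185), against a median of 0.752. miR-2110 had 34.6 and 22.4 TPM with apelin, against 46.2 and 32.5 TPM in the controls. miR-484 was the 22nd nearest (0.409), miR-320b the 28th (0.466), miR-320c the 35th (0.498) and miR-320d the 87th (0.668).

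Nearest to miR-484 were entries of miR-92a. miR-92a-1-3p lay at a distance of 0.0361, against a median of 0.424. It had 32166 and 23472 TPM with apelin, against 32687 and 27859 TPM in the controls. miR-92a-2-3p and miR-92a-3p followed at 0.0398 each, with all 4 counts in common, so their values are uncertain. miR-320c was the 18th nearest to miR-484 (0.162) and miR-320a-3p the 93rd.

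Other names with the same seeds added little. miR-4429, which shares the seed of miR-320b, matched no entry and was not analysed here. miR-3155b, which shares that of miR-484, had 0.94 and 0 TPM with apelin, against 0 TPM in both controls, at or near the limit of a count of 0.

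Other miRNAs known to bypass Drosha or to come from other small RNAs were few here. None passed edgeR's test, which called 0 of all 263 tested entries (0%), so this does not set them apart. Mirtrons are hairpins freed by splicing of a short intron. Of 26 mirtron names, 4 had an entry and 3 were tested, with 0 called in either direction by edgeR. At an unadjusted p under 0.05 in edgeR there were 0 of the 3, against 5.70% of the 263. miR-877-3p had 76.7 and 55.8 TPM with apelin, against 19.1 and 66.9 TPM in the controls, so that control 1 was lowest here, where miR-320a-3p was highest. miR-3940-3p had 40.4 and 26.5 TPM with apelin, against 45.7 and 36.9 TPM in the controls, with overlapping groups (log2 fold change -0.30, SE 0.32, adjusted p = 0.755 in edgeR). miR-1226-3p had 479 and 0 counts with apelin, against 0 and 442 counts in the controls, so each group had a library at 0 and no fold is given.

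Of 11 names of miRNAs that arise from small nucleolar RNAs, 3 had an entry and 1 was tested. miR-664a-3p had 57.1 and 48.8 TPM with apelin, against 65.7 and 55.6 TPM in the controls, with overlapping groups (log2 fold change -0.18, SE 0.21, adjusted p = 0.765 in edgeR). Of 9 names linked to transfer RNA, 2 had an entry and both were tested, with 0 called by edgeR, as among all 263 tested entries. miR-1260b had 5857 and 4207 TPM with apelin, against 5174 and 5593 TPM in the controls, the same order of size as miR-320a-3p (log2 fold change -0.083, SE 0.17, edgeR adjusted p = 0.874). miR-1260a had 0 counts in both apelin libraries, against 0 and 31145 counts in the controls, so no fold is given. In control 2 miR-1260b had 31672 counts, and it had 23987 to 31174 in the libraries where miR-1260a had 0. The sources used here do not say whether reads of these names were told apart, so the 0 counts may not mean absence. miR-451a, cut by Argonaute 2 in place of Dicer, matched no entry and was not analysed here.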

How the data were processed

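Small RNA from 4 PC-3 libraries, 2 per group, was counted per mature miRNA. The authors deposited a table of raw read counts, and beside them TPM values, which equal the count per 1000000 of the library total to within 0.00499 in 3 libraries and 0.151 in apelin 2. The table also lists a length in nt. Tools named in the submitters' processing notes are Trimmomatic 0.30 and DESeq2; aligner, catalogue and build are not given in sources used here. No column was left unmatched to a library.

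The main test was edgeR's quasi-likelihood test on the deposited counts with TMM scaling, over the 263 entries with a mean of at least 10 TPM (53.2 to 60.1 counts), with Benjamini-Hochberg adjustment and a threshold of 0.05. Each SE was obtained by dividing the log2 fold change by the root of the test's F. Other settings gave 17 further fits, and 1 more was chosen after seeing the data. The edgeR, DESeq2 and limma fits were also run on simulated counts with a single fixed dispersion and set changes larger than those of the members. That run does not cover smaller changes, or entries at 0 in some libraries only. Members and lists were chosen with earlier results of these data known. Named miRNAs were all members, same-seed entries, the 3 nearest patterns to the 2 most abundant members, and up to 4 tested entries of each list. Sequences came from RefSeq (GRCh38.p14) and hosts from GENCODE release 29. Software versions were edgeR 4.0.16, DESeq2 1.42.0 and limma 3.58.1 under R 4.3.3, and scipy 1.17.1, numpy 2.4.6, matplotlib 3.10.9 and pandas 2.3.3 under Python 3.11.15.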

Additional observations from a re-analysis of the deposited data

How the results depend on the processing

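The count of called entries, 0 in the main test, was 53 with DESeq2, 4 with limma on log2(TPM + 1), 5 and 4 with pseudocounts of 0.1 and 10, 4 at a minimum of 100 TPM (which leaves out miR-320c and miR-320d), 52 with no filter, and 0 to 19 with a library left out. With the replicate block it was 0 of 263, and 30 (14.5%) on the 207 catalogue entries above 0 in every library. There the replicate block put miR-320a-3p past the threshold (log2 fold change -0.40, SE 0.13, edgeR adjusted p = 0.0194), and it called no other of the 5. No label ties equal replicate numbers to a shared batch or day; over miRNAs, deviations of equal-numbered libraries had r = 0.318. No other setting called any of the 5. DESeq2 on those 207, chosen after seeing the data, called 0 (26 at an unadjusted p under 0.05).

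With all libraries kept, every alternative left the 5 fold changes negative, from -0.41 to -0.080. With a library left out, miR-320a-3p ran from -0.72 to -0.055, miR-484 from -0.29 to 0.027, miR-320b from -0.49 to 0.047, miR-320c from -0.30 to -0.12 and miR-320d from -0.26 to -0.17. The share differences ran from -1.12 to 0.24 percentage points for miR-320a-3p, -0.12 to 0.56 for miR-320b, -0.039 to 0.33 for miR-320c and -0.084 to 0.23 for miR-320d. The difference in family sum ran from -3721 to -334 TPM, and the log2 ratio of miR-484 to that sum from 0.099 to 0.44. The cause was not tested, except that fewer libraries remain. A run without miR-320e was not needed, as it had no entry. Depth limits miR-320d most, at 230 to 293 counts.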
